A study of Mus musculus with 20 samples.

Results

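Cirbp and Rbm3 encode the cold-inducible RNA-binding protein and RNA-binding motif protein 3, a pair of related proteins whose mRNAs accumulate when mammalian cells are cooled mildly. They were taken by their platform gene symbols, and each had 1 transcript cluster (TC1000000843.mm.2 for Cirbp, TC0X00001797.mm.2 for Rbm3), 2 of the 22206 clusters measured and of the 19572 with a gene symbol. Liver RNA came from 20 adult male C57BL/6NCr mice aged 4 to 5 months, each hybridised to 1 Affymetrix array, in 4 groups of 5. The groups differ in the temperature at which the dam was kept through pregnancy: 10 °C, 18 °C, 23 °C (the standard temperature of the animal house, used as control) or 30 °C. Dams were acclimated before breeding, for 3 weeks at 30 °C and for 2 weeks at 18 °C and 10 °C, and sires were exposed for 3 days. On the day of birth every litter was moved to 23 °C, and all offspring then lived at 23 °C on chow, so the livers themselves came from mice at 1 housing temperature. The labels name no litter, dam, hour of death or feeding state. In what follows a group is named for its dams' temperature, and each array also carries its mouse's number.

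Both proteins hold a single RNA recognition motif at the amino end, which binds mRNA, followed by a tail rich in arginine and glycine. In cooled cells CIRBP stabilises bound mRNAs and moves to stress granules, and RBM3 supports translation. In the mouse, body temperature falls in the resting phase of each day, and the Cirbp transcript of the liver follows that daily rhythm, opposite in phase to the heat shock chaperones. In cultured mouse fibroblasts CIRBP binds the mRNA of the clock gene Clock. Rbm3 lies on the X chromosome, and in cooled mouse neurons its protein preserves synapses. In both genes temperature changes the splicing of the transcript, which the single value per gene on these arrays does not resolve.

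A promoter element has been described in mouse Cirbp that carries the response to mild cold and is bound by the factor SP1, with the letters TCCCCGCC. The sequence of 250 bases before 1 of the 2 Cirbp starts in the RefSeq promoter table is shown because it holds this element, in capitals, 247 to 240 bases before the start (build GRCm38.p6, plus strand, chr10:80167589-80167838).
Cirbp upstream of the first start: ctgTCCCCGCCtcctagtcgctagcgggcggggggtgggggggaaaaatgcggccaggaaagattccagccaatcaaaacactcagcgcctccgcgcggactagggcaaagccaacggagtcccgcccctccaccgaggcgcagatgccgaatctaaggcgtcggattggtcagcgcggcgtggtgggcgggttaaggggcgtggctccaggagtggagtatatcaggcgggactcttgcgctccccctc
On either strand the element's letters occurred in 4.64% of 32851 windows of the same length upstream of RefSeq starts. The GC box GGGCGG, another SP1 motif, occurred 3 times in the Cirbp window without overlapping the element. Of all windows 32.7% held it 1 or more times, and the share with as many as the Cirbp window was not counted. The E-box CACGTG of clock factors (6.02% of windows) and the core GAANNTTC of heat shock elements (6.69%), both also searched on either strand, were not among the letters of this window. The arrays measured mRNA and not the promoter, so the motif is a description of the sequence alone.

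Cirbp was highest in the offspring of dams kept at 10 °C and lowest in those of dams kept at 18 °C. On the log2 scale, the 10 °C arrays read 7.41, 7.74, 7.67, 8.10 and 7.52 for animals 2, 4, 5, 6 and 8. The 18 °C arrays read 6.48, 6.38, 6.55, 7.02 and 7.51 for animals 1, 3, 4, 5 and 7. In 4 of 5 animals the 10 °C level lay above every 18 °C level, and only 18 °C animal 7 reached into the 10 °C range. The 23 °C controls read 6.08, 7.05, 7.21, 7.57 and 7.11 for animals 1, 2, 15, 17 and 23. The 30 °C arrays read 6.96, 6.96, 6.93, 7.60 and 7.51 for animals 4 to 8. Control animal 1 was the lowest of all 20 arrays, while all 5 of the 10 °C arrays stood above the median of each other group. The order of the group means was 6.79 ± 0.47 at 18 °C, 7.005 ± 0.55 at 23 °C, 7.19 ± 0.33 at 30 °C and 7.69 ± 0.26 at 10 °C (SD, n = 5 each), which does not follow the order of the temperatures.

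**Figure D1:**
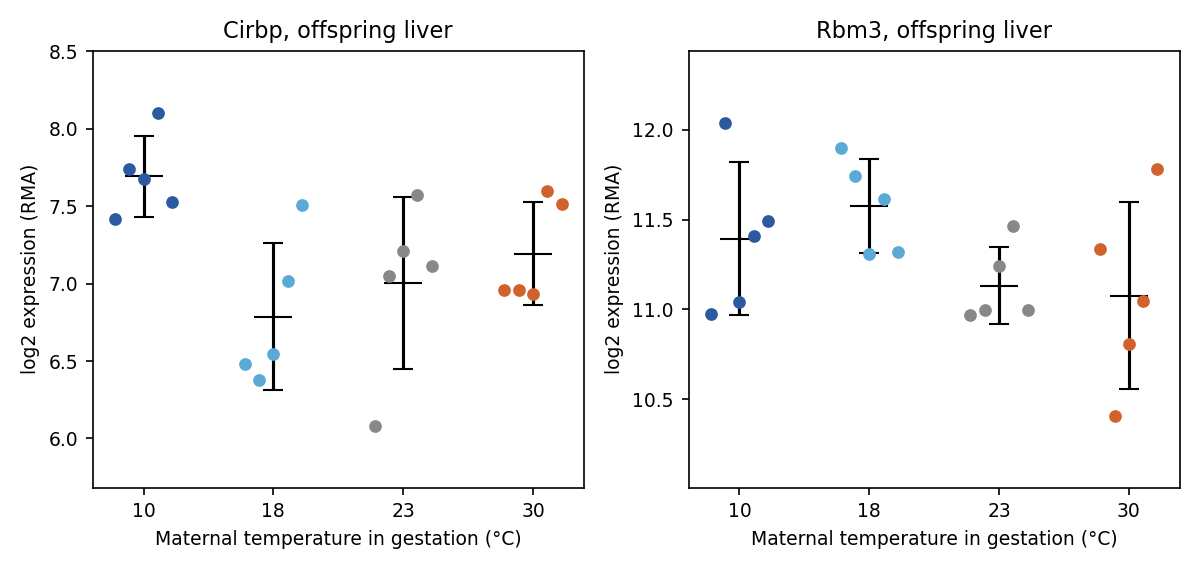
Log2 expression of Cirbp (left) and Rbm3 (right) in offspring liver by maternal temperature in °C; each point is 1 array, the dash is the mean and the bar 1 SD of 5 arrays. The Cirbp values of 10 °C offspring (7.41 to 8.10) lie above the other medians, and the Rbm3 values of 18 °C offspring (11.31 to 11.90) above the 23 °C median.

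The Cirbp difference between 10 °C and 18 °C offspring was 0.90 ± 0.24 (SE), a 1.87-fold higher level at 10 °C, with a 95% interval of 0.40 to 1.41. Its unadjusted limma p was 0.00122, and 0.293% of all clusters had a smaller one. After adjustment over the 22206 clusters p was 0.408, so the difference did not pass the threshold of 0.05; in this comparison 0% of clusters passed and 8.1% had an unadjusted p under 0.05. The exact permutation test of Cirbp alone, two-sided over all splits into 5 and 5 arrays, gave an unadjusted p of 0.0159, where no such split reaches below 0.0079. Against the 23 °C controls the 10 °C difference was 0.69 ± 0.24 (1.61-fold, interval 0.18 to 1.19, exact unadjusted p = 0.0238). Here 3.65% of clusters had a smaller limma p than Cirbp (unadjusted p = 0.0101, adjusted p = 0.276). In that comparison 0.00901% of clusters passed after adjustment and 11.6% had an unadjusted p under 0.05. Leaving out control animal 1, the lowest array, brought this difference to 0.46, more than 1.5 times smaller, and without control animals 1 and 2 it was 0.39, a setting chosen after the chaperone values described below were seen.

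Against 30 °C offspring the 10 °C difference of Cirbp was 0.50 ± 0.24 (interval -0.01 to 1.01, adjusted p = 0.743, exact unadjusted p = 0.0476), in a comparison where 0% of clusters passed and 6.76% had an unadjusted p under 0.05. The other 3 pairs of groups gave no difference that passed, and their intervals included 0. The 18 °C and 23 °C groups differed by -0.22 ± 0.24 (interval -0.72 to 0.29, adjusted p = 0.838), where 0% of clusters passed and 9.25% had an unadjusted p under 0.05. With each array left out in turn it ran from -0.45, without control animal 1, to -0.08, without control animal 17. The 30 °C and 23 °C groups differed by 0.19 ± 0.24 (interval -0.32 to 0.69, adjusted p = 0.987; 0% passed), and without control animal 1 by -0.04. Between 18 °C and 30 °C the difference was -0.41 ± 0.24 (interval -0.91 to 0.10, adjusted p = 0.704), where 0% passed and 8.21% had an unadjusted p under 0.05. These intervals include differences of about the size seen between 10 °C and the controls, so they do not show that the groups are alike. The test over the 4 groups gave an unadjusted p of 0.00850 for Cirbp (2.15% of clusters had a smaller one; adjusted p = 0.388; 0% passed). The slope on maternal temperature was -0.22 ± 0.14 per 10 °C (adjusted p = 0.698; 0% passed).

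Rbm3 had another order of groups, with the highest mean at 18 °C. The 18 °C arrays read log2 values of 11.90, 11.74, 11.31, 11.62 and 11.32 for animals 1, 3, 4, 5 and 7. The 10 °C arrays read 10.98, 12.04, 11.04, 11.41 and 11.49 for animals 2, 4, 5, 6 and 8. All 5 of the 18 °C arrays stood above the median of the controls, and the 10 °C arrays ran from the level of the lowest controls to animal 4, the highest of the 20. The 23 °C controls read 10.97, 10.99, 11.24, 11.46 and 10.996 for animals 1, 2, 15, 17 and 23. The 30 °C arrays read 11.33, 10.41, 10.81, 11.05 and 11.78 for animals 4 to 8. The 30 °C group held the lowest array, animal 5, and also a high one, animal 8. The means were 11.08 ± 0.52 at 30 °C, 11.13 ± 0.22 at 23 °C, 11.39 ± 0.43 at 10 °C and 11.58 ± 0.26 at 18 °C (SD, n = 5 each).

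The differences of Rbm3 were smaller than the largest of Cirbp, and none passed after adjustment over all clusters in any of the comparisons run with limma. Between 18 °C and 30 °C offspring Rbm3 differed by 0.50 ± 0.22 (SE, 1.41-fold, interval 0.04 to 0.96, adjusted p = 0.568; exact unadjusted p = 0.103), and 6.04% of clusters had a smaller limma p. Without 30 °C animal 5, the lowest array, this difference was 0.33. Between 18 °C offspring and controls it differed by 0.44 ± 0.22 (1.36-fold, interval -0.02 to 0.90, adjusted p = 0.559; exact unadjusted p = 0.0317), with 10.4% of clusters at a smaller p. Between 10 °C and 23 °C the difference was 0.26 ± 0.22 (interval -0.20 to 0.72, adjusted p = 0.693), and without 10 °C animal 4 it was 0.10, more than 1.5 times smaller. Between 10 °C and 30 °C it was 0.32 ± 0.22 (interval -0.14 to 0.78, adjusted p = 0.830), and 0.15 without either 10 °C animal 4 or 30 °C animal 5. The neighbours in the order of levels, 10 °C and 18 °C (-0.18 ± 0.22, interval -0.64 to 0.28) and 30 °C and 23 °C (-0.06 ± 0.22, interval -0.52 to 0.40), differed by less than their spread. The slope was -0.20 ± 0.11 per 10 °C (adjusted p = 0.656), and the test over the 4 groups gave an adjusted p of 0.598.

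With both colder groups set against both warmer ones, Rbm3 was higher after cold gestation by 0.38 ± 0.16 (SE, interval 0.05 to 0.71, 1.30-fold), and 9 of the 10 cold arrays stood above the warm median. The unadjusted limma p was 0.0241, with 6.64% of clusters at a smaller one, and the adjusted p was 0.362, in a comparison where 0.0045% of clusters passed and 11.5% had an unadjusted p under 0.05. The permutation test of Rbm3 alone gave an unadjusted p of 0.0297. Cirbp differed by 0.14 ± 0.17 in the same comparison (interval -0.22 to 0.50, adjusted p = 0.813). Its highest and its lowest group, 10 °C and 18 °C, were both among the cold ones. The median and the mean of the 23 background control rows of each array differed in opposite directions in this comparison, and neither passed after adjustment. Their median was 4.26 in the cold and 4.28 in the warm arrays (permutation p = 0.00422, adjusted p = 0.0556 over 28 comparisons of array measures). Their mean was higher in the cold arrays, 3.71 against 3.65 (permutation p = 0.00452, adjusted p = 0.0556). Over the 20 arrays Rbm3 was related to the median of these rows by Pearson's r = -0.55 (permutation p = 0.0126, adjusted p = 0.0442 over 7 relations) and Spearman's rho = -0.51 (adjusted p = 0.0829). Without 18 °C animals 1 and 3, the arrays farthest from the median of that measure, r was -0.35 (adjusted p = 0.337), and with values centred on group means it was -0.33 (permutation p = 0.180). The relation did not hold without those 2 arrays or within groups. For Cirbp the corresponding r was 0.40 (adjusted p = 0.197). With the median of the background rows as a covariate the cold to warm difference of Rbm3 was 0.21 ± 0.19 (SE). Over the alternatives, which include the mean of these rows as a covariate, it ran from 0.21 to 0.43. The part of these rows in the result was not tested otherwise.

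**Figure D2:**
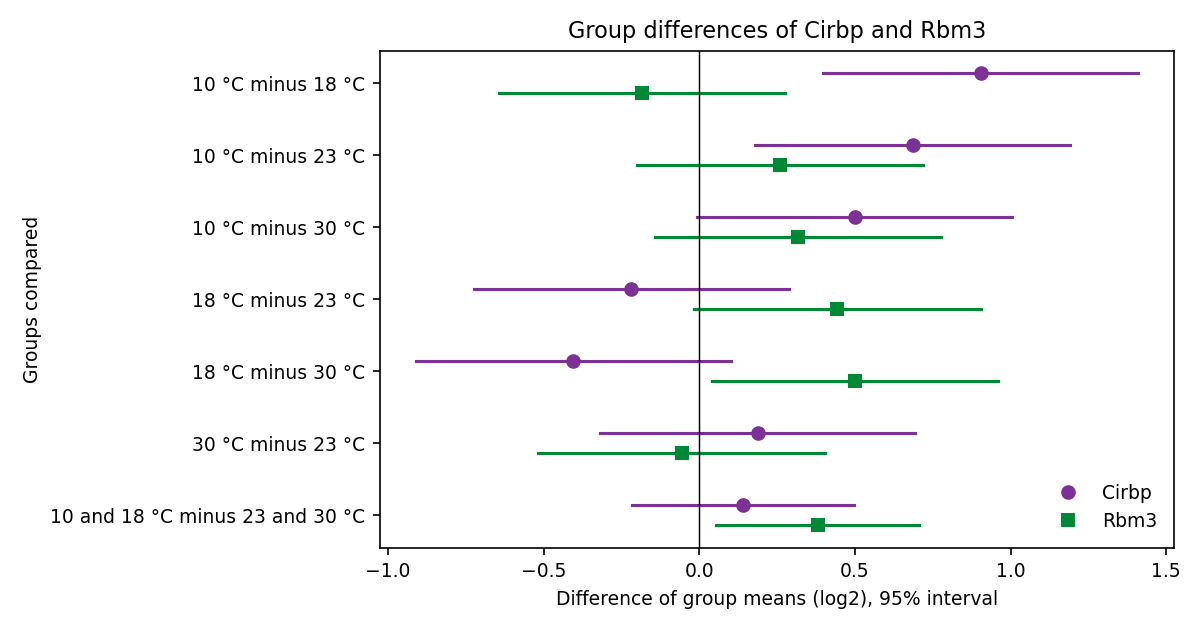
Differences of group means (log2, horizontal axis) of Cirbp (circles) and Rbm3 (squares) for the 6 pairs of groups and for both cold against both warm groups; lines are 95% intervals from limma. Cirbp lies furthest from 0 for 10 °C minus 18 °C (0.90), where Rbm3 lies on the other side of 0 (-0.18).

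The 2 genes therefore had different orders over the groups, and whether they changed unequally was tested on the difference of their log2 values within each array. Between 10 °C and 18 °C the Cirbp difference exceeded that of Rbm3 by 1.09 (exact p = 0.0238, adjusted p = 0.167 over the 7 comparisons). Between 18 °C and 30 °C the Cirbp difference of -0.41 stood beside 0.50 for Rbm3, unequal by -0.91 (exact p = 0.0476, adjusted p = 0.167). In the other 5 comparisons the exact or permutation p was 0.127 or more, so after adjustment none of the 7 passed.

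Across the 20 arrays no relation between the levels of the 2 genes passed the test. Pearson's r was 0.10 (permutation p = 0.664) and Spearman's rho 0.22 (p = 0.358). With each value centred on its group mean r was 0.23 (permutation within groups, p = 0.285, adjusted p = 0.333 over 7 relations), and r was positive in 3 of the 4 groups taken alone. Without 30 °C animal 5 and 10 °C animal 4, the arrays farthest from the median of Rbm3, r was -0.07. Among 11199 named clusters above the level of olfactory receptors, Rbm3 stood at rank 4519 by its correlation with Cirbp, and Cirbp at rank 3691 by its correlation with Rbm3. Both genes varied more between animals of a group than most clusters did. The within-group SD was 0.42 for Cirbp and 0.38 for Rbm3, against a median of 0.29 over 12464 clusters above that level, and 84.9% and 76.5% of those clusters had a smaller one.

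**Figure D3:**
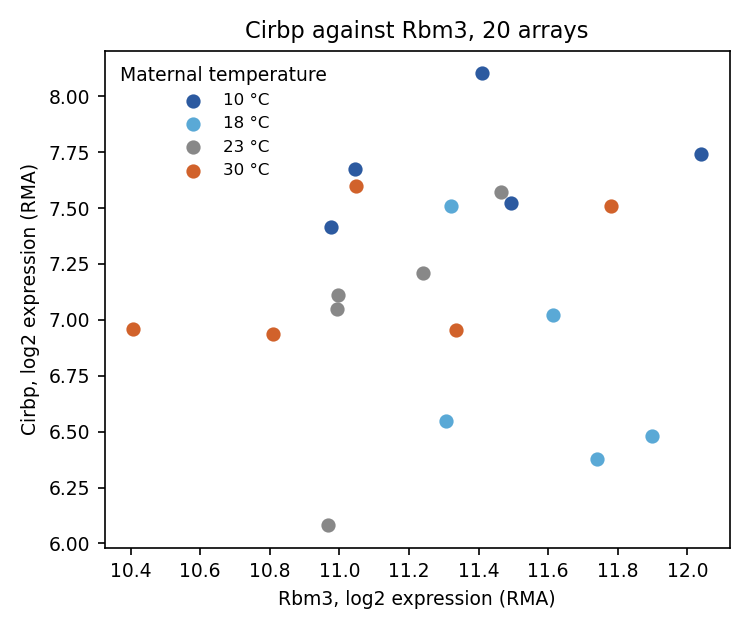
Log2 expression of Cirbp (vertical) against Rbm3 (horizontal) in the 20 arrays, coloured by maternal temperature. The points show no common trend (r = 0.10), the 10 °C arrays lie high for Cirbp, and 18 °C animals 1 and 3 lie low for Cirbp (6.48 and 6.38) and high for Rbm3 (11.90 and 11.74).

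Heat shock chaperones, which heat shock factors induce when proteins unfold, are the textbook counterpart of these cold-induced genes. As a list they were lower in 10 °C offspring than in 23 °C and 18 °C offspring. Neither the mean of the list nor any single member passed after adjustment. Of 17 chaperones listed, 15 were measured here. In the 10 °C to 23 °C comparison 15 of 15 were lower, with a median of -0.69 against 0.00 over all clusters, 10 of them had an unadjusted p under 0.05 (11.6% of all clusters), and 0 passed after adjustment. In the 10 °C to 18 °C comparison 15 of 15 were again lower, with a median of -0.46, 7 with an unadjusted p under 0.05 (8.1% of all clusters) and 0 passing. Between 18 °C and 23 °C, where both Cirbp and the mean of the chaperones were lower at 18 °C, the median was -0.04, 11 of 15 were lower, 0 had an unadjusted p under 0.05 (9.25% of all clusters) and 0 passed. Between 30 °C and 23 °C, 14 of 15 were lower with a median of -0.37, 1 with an unadjusted p under 0.05 (4.84% of all clusters) and 0 passing. Between 10 °C and 30 °C, 13 of 15 were lower with a median of -0.21, 1 with an unadjusted p under 0.05 (6.76% of all clusters) and 0 passing. Between 18 °C and 30 °C, 14 of 15 were higher with a median of 0.27, 0 with an unadjusted p under 0.05 (8.21% of all clusters) and 0 passing. The differences against 23 °C were smaller or turned without the controls of highest chaperone level, settings chosen after these values were seen. Without control animal 1 the medians were -0.47 at 10 °C (15 of 15 lower), 0.12 at 18 °C (5 of 15 lower) and -0.15 at 30 °C (12 of 15 lower). Without control animals 1 and 2 they were -0.19 (12 of 15 lower), 0.19 (1 of 15 lower) and -0.04 (9 of 15 lower). Heat shock factors induce the members of this list together, so all these counts are not independent. Hsp90aa1, the inducible cytosolic HSP90, differed by -0.88 ± 0.23 between 10 °C and 23 °C (SE, adjusted p = 0.154), and Hspb1, a small heat shock protein, by -0.71 ± 0.22 (adjusted p = 0.210). Stip1, a scaffold between HSP70 and HSP90, differed by -0.68 ± 0.23 and Dnajb1, a co-chaperone of HSP70, by -0.75 ± 0.26. The mean of the 15, centred over arrays, ran from -0.48 to -0.18 in 10 °C and from -0.16 to 1.09 in 23 °C arrays, and control animals 1 and 2 held its highest values, 1.09 and 0.62. Its difference was -0.62 with all arrays, -0.42 without control animal 1 and -0.24 without both. The groups did not overlap in this mean (exact p = 0.0079, which is the lower limit for 5 against 5 arrays, adjusted p = 0.0556 over 28 comparisons of array measures), as was the case, in the lower direction, for 1.4% of single clusters. Between 10 °C and 18 °C offspring the mean of the 15 differed by -0.52 (exact p = 0.0159, adjusted p = 0.0741 over the same 28 comparisons).

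Over the 20 arrays Cirbp was lower where the chaperone mean was higher, with Pearson's r = -0.74 (permutation p = 0.00023, adjusted p = 0.00161 over 7 relations) and Spearman's rho = -0.71 (adjusted p = 0.00392). Without control animals 1 and 2, the arrays farthest from the median of the chaperone mean, r was -0.68 (adjusted p = 0.0149). Within groups the relation was in the same direction in 4 of 4 groups, with r = -0.63 for values centred on group means (permutation p = 0.0164, adjusted p = 0.115), without control animal 1 it was -0.39, and without control animals 1 and 2 it was -0.37 (permutation p = 0.234). The relation over all arrays therefore passed the test, and that within groups did not. The chaperone list was chosen with earlier results of these data known, a choice that the adjustment over 7 relations does not cover. With the chaperone mean as a covariate the 10 °C to 23 °C difference of Cirbp was 0.22 ± 0.25 (adjusted p = 0.871) and the 10 °C to 18 °C difference 0.51 ± 0.23 (adjusted p = 0.919). The part of the chaperones in these differences was not tested otherwise. For Rbm3 the relation to the chaperone mean did not pass, at r = -0.25 (adjusted p = 0.345) and -0.35 within groups (adjusted p = 0.207). Between single chaperones and Cirbp the centred correlation was negative for 14 of 15, such as Stip1 (-0.71), Hsph1, an HSP110 (-0.70), and Dnajb1 (-0.65), with a median of -0.42 against 0.01 over all clusters, and for Rbm3 it was negative for 13 of 15 with a median of -0.29. These correlations come from the same 20 arrays and normalisation and are given without a test, and the counts of chaperones are not independent.

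**Figure D4:**
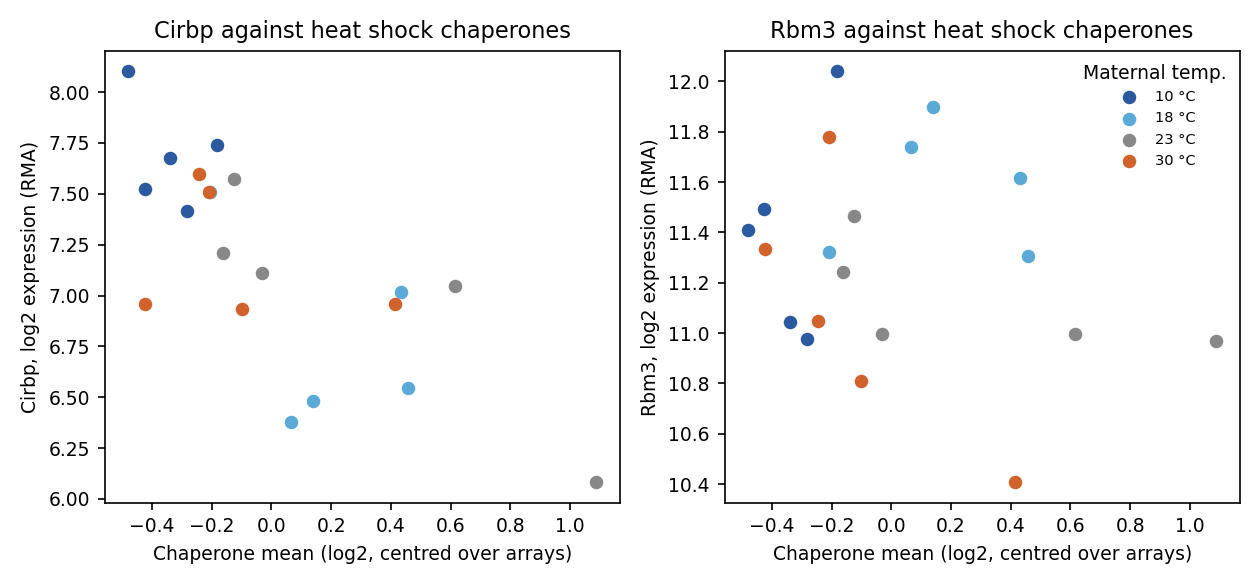
Log2 expression of Cirbp (left) and Rbm3 (right) against the mean log2 value of 15 heat shock chaperones, each centred over arrays; points are the 20 arrays, coloured by maternal temperature. Cirbp declines along the axis (r = -0.74), and control animal 1 lies at its lower right end with a chaperone mean of 1.09 and a Cirbp value of 6.08.

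Genes of the circadian clock were considered because the hour of death is not given and Cirbp is rhythmic in mouse liver. A clock score, the mean of 11 evening-phase genes minus that of 5 morning-phase genes, varied widely within every group, from -2.61 to 2.61 among the controls alone. No pair of groups passed the test, the smallest exact p of the 6 pairs being 0.333. Evening genes were higher between 10 °C and 23 °C in 7 of 11 cases, with a median of 0.28, 1 with an unadjusted p under 0.05, the clock repressor Cry2 (0.87 ± 0.33 SE, adjusted p = 0.300), against 11.6% of all clusters, and 0 passed. Of 7 morning genes listed, 5 were measured here, and 2 of them were higher, with a median of -0.02. In the 10 °C to 18 °C comparison, that of the largest Cirbp difference, 9 of 11 evening genes were lower (median -0.26) and 5 of 5 morning genes higher (median 0.42). In the 18 °C to 23 °C comparison 11 of 11 evening genes were higher (median 0.52) and 3 of 5 morning genes lower (median -0.44). In these 2 comparisons 0 clock genes had an unadjusted p under 0.05, against 8.1% and 9.25% of all clusters, and the part of the clock genes in the results was not tested beyond the fits with the score. The correlation with the score was r = -0.28 for Cirbp and 0.31 for Rbm3 (adjusted p = 0.336 and 0.325). Within groups the medians of the clock lists had opposite signs for the 2 genes. The centred correlation with Cirbp was negative for 11 of 11 evening genes (median -0.20) and positive for 5 of 5 morning genes (0.26), and with Rbm3 it was positive for 8 of 11 evening genes (0.26) and negative for 5 of 5 morning genes (-0.26). Over all clusters 11412 of 22205 were positive with Cirbp and 11056 with Rbm3. Members of either clock list oscillate together, so their counts are not independent. With the score as a covariate the Cirbp differences were 0.70 between 10 °C and 23 °C and 0.85 between 10 °C and 18 °C. Clock, whose mRNA CIRBP binds, differed by -0.02 ± 0.27 (SE) between 10 °C and 23 °C and by 0.42 ± 0.27 between 10 °C and 18 °C (adjusted p = 0.985 and 0.724), and its centred correlation was 0.26 with Cirbp and -0.35 with Rbm3.

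**Figure D5:**
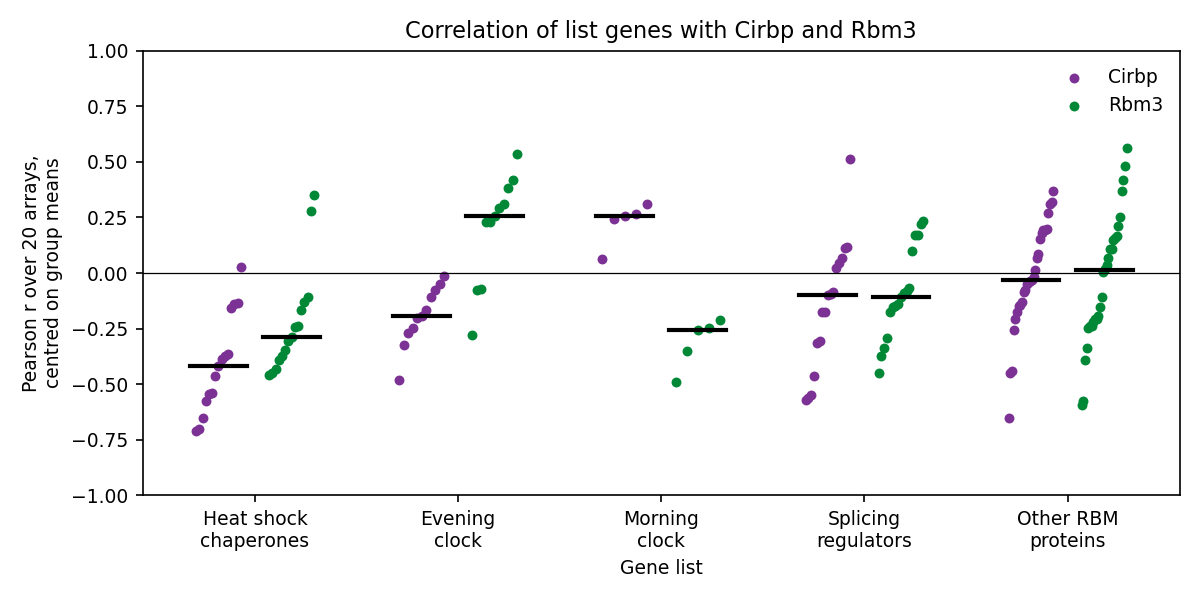
Pearson correlation over 20 arrays, with values centred on group means, between Cirbp or Rbm3 and each gene of 5 lists; each point is 1 gene and the black line the median of the list. Below 0 lie 14 of 15 chaperones for Cirbp and 13 of 15 for Rbm3 (medians -0.42 and -0.29), and the medians of the clock lists lie on opposite sides of 0 for the 2 genes, with 3 of 11 evening genes below 0 for both.

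Other RNA-binding proteins were counted in the 10 °C to 23 °C comparison. Of 11 measured relatives with RNA recognition motifs, such as Rbmx and the hnRNP proteins, 8 were higher between 10 °C and 23 °C (72.7% against 50.4% of all clusters), with a median of 0.13. Of the 11, 1 had an unadjusted p under 0.05 (9.09% against 11.6% of all clusters) and 0 passed. The list members with the smallest p were Srsf3, a splicing factor (-0.45 ± 0.18 SE), Hnrnpd, which binds AU-rich mRNAs (0.29 ± 0.14), Msi2 (0.28 ± 0.15) and Rbmxl1 (0.19 ± 0.16), the last with a mean under the level of olfactory receptors. Of the 28 other RBM proteins measured, 11 were higher, with a median of -0.04, 5 had an unadjusted p under 0.05 (17.9% against 11.6% of all clusters) and 0 passed. The members with the smallest p were Rbm12b1 (-0.69 ± 0.20), Rbm47, which takes part in RNA editing (-0.55 ± 0.18), Rbm48 (0.58 ± 0.19), a factor of minor intron splicing, and Rbm5 (-0.47 ± 0.18), a splicing regulator. Of the 7 measured proteins with a cold shock domain, a fold shared with bacterial cold shock proteins, 3 were above the level of olfactory receptors, and 0 had an unadjusted p under 0.05 (11.6% of all clusters). Ybx1, the most studied of them, differed by 0.04 ± 0.12.

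Splicing regulators whose activity depends on temperature in mammalian cells were a further list, of which 17 were measured. Between 10 °C and 23 °C offspring 6 were higher and 11 lower, with a median of -0.06, 4 had an unadjusted p under 0.05 (23.5% against 11.6% of all clusters) and 0 passed. Srsf5, an SR protein, differed by 0.69 ± 0.25 (SE, adjusted p = 0.280), by 0.89 ± 0.25 between 10 °C and 18 °C and by 0.68 ± 0.25 between 30 °C and 23 °C. Its group order was that of Cirbp, with 18 °C lowest, but its 10 °C and 30 °C groups differed by only 0.01 ± 0.25, against 0.50 for Cirbp. The centred correlation of Srsf5 with Cirbp was 0.51. Tra2a, another splicing factor, differed by -0.87 ± 0.25 between 10 °C and 23 °C (adjusted p = 0.189), and Srsf4 by 0.37 ± 0.15. Clk2 (0.37 ± 0.17) had a mean under the level of olfactory receptors. Clk1 and Clk4, kinases of SR proteins that are more active at lower body temperature, differed by -0.29 ± 0.22 and -0.10 ± 0.18, and Hnrnph1, which in human neurons keeps an exon that leads to decay of the mRNA out of Rbm3, by -0.06 ± 0.16. The direction of the list turned between 10 °C and 18 °C, where 12 of the 17 were higher (50.1% of all clusters), with a median of 0.08. There 3 had an unadjusted p under 0.05 (17.6% against 8.1% of all clusters) and 0 passed.

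Among 8 transcripts bound by CIRBP or receptors of the extracellular protein, 5 were higher between 10 °C and 23 °C (62.5% against 50.4% of all clusters), with a median of 0.08. In this list 0 had an unadjusted p under 0.05 (11.6% of all clusters). Rpa2, a subunit of the single-stranded DNA-binding complex, differed by 0.07 ± 0.14 (SE), Txn1, thioredoxin, by -0.03 ± 0.11, and Tlr4, the receptor through which secreted CIRBP acts on macrophages, by 0.20 ± 0.27. The centred correlation of Rpa2 was -0.22 with Cirbp and -0.68 with Rbm3, given as a description. Of 9 measured heat shock factors and genes linked to cold or heat, 5 had a mean above the level of olfactory receptors. Between 10 °C and 23 °C 6 of the 9 were higher (66.7% against 50.4% of all clusters), and 0 had an unadjusted p under 0.05 (11.6% of all clusters). Among the 9 were Sp1 (0.16 ± 0.14), which binds the promoter element shown above, and Dyrk1b, a kinase (0.12 ± 0.21). Ntrk2, the receptor TrkB (-0.47 ± 0.57), had a mean under the level of olfactory receptors.

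The genes most alike to each member were taken by Pearson's r over the 20 arrays among the 11199 named clusters above the level of olfactory receptors. For Cirbp the highest were Tigd2 (r = 0.81, and 0.72 centred on groups), Map3k1 (0.78, 0.67), Atp6v1b2 (0.78, 0.63), Smarca5-ps (0.76, 0.78), Zdhhc17 (0.75, 0.57) and Crebrf (0.74, 0.73). The lowest were Dnph1 (-0.78, -0.63), Tsc22d3 (-0.78, -0.67), Dnajb1 (-0.78, -0.65) and Hsph1 (-0.77, -0.70), the last 2 of them chaperones of the list above. For Rbm3 the highest were Col14a1 (0.77, 0.68), Bche (0.75, 0.69), Rtn4 (0.75, 0.69), Haus7 (0.73, 0.71), Itgb1 (0.71, 0.67) and Igfbp3 (0.70, 0.79). The lowest were Mup6 (-0.87, -0.86), Gstp2 (-0.78, -0.72), Lin37 (-0.78, -0.71) and Pcgf1 (-0.76, -0.69). No gene was among the extremes of both members. Smarca5-ps is a pseudogene, and Mup6, a major urinary protein, and Gstp2, a glutathione transferase, belong to families of near-identical copies, so their values may hold signal of relatives. These are the extremes of many correlations over few arrays and are not tested.

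The samples carried the markers of liver. The hepatocyte genes Alb, Apoa1, Ttr, Serpina1a and Cyp2e1 were between 18.70 and 19.93 in every array, near the top of the scale, where differences are compressed. For other cell types the mean of each marker list is given by group. For 6 macrophage markers it ran from 6.93 to 7.65 in 10 °C, from 6.92 to 7.76 in 18 °C, from 6.44 to 7.24 in 23 °C and from 6.69 to 7.38 in 30 °C arrays. For 6 sinusoidal endothelial markers it ran from 7.81 to 8.42, from 7.95 to 8.53, from 7.79 to 8.21 and from 7.72 to 8.46 in the same order. For 6 stellate cell markers it ran from 7.35 to 7.78, from 7.23 to 7.73, from 7.21 to 7.66 and from 7.30 to 7.52. For 4 cholangiocyte markers, 2 of them above the level of olfactory receptors, it ran from 4.53 to 4.80, from 4.38 to 4.97, from 4.72 to 4.94 and from 4.24 to 4.99. The ranges of the groups overlapped in these 4 lists. Between 10 °C and 23 °C 5 of 6 macrophage, 3 of 6 endothelial, 5 of 6 stellate and 1 of 4 cholangiocyte markers were higher, with 0 passing. Of all clusters 50.4% were higher and 0.00901% passed in that comparison. In the cold to warm comparison, where Rbm3 was higher by 0.38, 6 of 6 macrophage (median 0.30), 4 of 6 endothelial (0.17), 6 of 6 stellate (0.14) and 2 of 4 cholangiocyte markers (-0.07) were higher, again with 0 passing. There 50.9% of all clusters were higher and 0.0045% passed. The centred correlation with Rbm3 was positive for 3 of 6 macrophage, 5 of 6 endothelial, 6 of 6 stellate and 3 of 4 cholangiocyte markers, against 11056 of 22205 clusters. The part of these cells in the Rbm3 result was not tested. Of 5 lymphocyte and 4 adipocyte markers 0 had a mean above the level of olfactory receptors. The 1 erythroid gene measured, Alas2, ran from 10.93 to 11.41 in 10 °C and from 11.58 to 12.07 in 23 °C arrays, without overlap, as did 1.4% of clusters in that direction, and its part in the results was not tested. In bulk RNA of this kind a smaller number of cells of a type and less RNA per cell cannot be told apart.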

How the data were processed

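Liver RNA of 20 mice was measured on 1 array each. The authors deposited, for every row of every array, a log2 value made with RMA (background correction, quantile normalisation and summary of probes) and the Transcriptome Analysis Console, per the submitters' processing notes, with versions not given in the sources used here. RMA compresses differences of dim and of very bright rows, and quantile normalisation hides a shift common to all genes. Of 28846 rows, 6640 were controls and 22206 transcript clusters, of which 19572 had 1 gene symbol, 0 several and 2634 none. Array medians over clusters were 4.39 to 4.46, arrays correlated at 0.987 to 0.993, and 0 pairs were identical. The number of arrays limits the precision.

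A model of 4 group means over all 20 arrays was fitted to every cluster (lmFit and eBayes of limma 3.58.1, under R 4.3.3), with Benjamini-Hochberg adjustment over all 22206 clusters within a comparison and a threshold of 0.05. All tests are two-sided. Permutation tests used scipy 1.17.1 and numpy 2.4.6, exact for groups of 5 and with 100000 resamples otherwise. Where nothing says that mice came from separate litters, p-values measure the spread between these arrays. The level of olfactory receptors is the 95th percentile of the means of 1091 olfactory receptor clusters, 3.90. Genes of a list were named by the smallest p between 10 °C and 23 °C, up to 4, with Clock, Clk1, Clk4, Hnrnph1, Rpa2, Txn1, Tlr4, Ybx1 and others fixed by name. Alas2 and the values of Srsf5 in other comparisons were chosen after their values were seen. The members and lists were chosen with earlier results of these data known. Of the listed genes, some had no row and are not used here. The fit was also run on simulated data with known shifts. Its clusters were drawn independently, so it does not test the effect of correlated genes or of outlying arrays. Alternatives covered scaling, covariates, variance models, filters and single arrays. Animal numbers that recur between groups mark separate mice: over 11 pairs of equal number the correlation of deviations from the group means ran from -0.21 to 0.17.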

Additional observations from a re-analysis of the deposited data

Results flagged for a closer look

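One measure of array background stood apart in 1 array. The mean of the 23 background control rows was 3.64 in 18 °C animal 5, against 3.71 to 3.74 in the other 4 arrays of its group. About 1 in 20 groups stands apart in this way by chance. For Cirbp, Rbm3, the clock score, the chaperone mean and the median of the same rows, no array met that criterion in any of the 4 groups. This animal's values were 7.02 for Cirbp and 11.62 for Rbm3. Without it the 18 °C to 23 °C difference of Rbm3 was 0.43 in place of 0.44, and the 10 °C to 18 °C difference of Cirbp 0.96 in place of 0.90.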

How the results depend on the processing

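Of 933 alternative values, 900 kept their direction and their side of the threshold. No difference of Cirbp or Rbm3 passed in the main fit, and many alternatives shared nearly all arrays with it. This count therefore says little about how far the sizes moved. No difference of Cirbp or Rbm3 passed after adjustment over all clusters under any alternative run. The differences of Cirbp between 10 °C and 18 °C ran from 0.51 to 0.91 over the alternatives, and those between 10 °C and 23 °C from 0.22 to 0.83, the lowest of both with the chaperone mean as a covariate. The 18 °C to 23 °C difference of Cirbp was 0.13 with the background rows as a covariate. The 30 °C to 23 °C difference of Cirbp was -0.11 with the chaperone mean as a covariate and -0.11 without control animals 1 and 2, a setting which, like the mean of the background rows as a covariate, was chosen after seeing the data. Without those animals the cold to warm difference of Cirbp was -0.0061 and the correlation of Cirbp with Rbm3 -0.00676, and without the 2 farthest arrays that correlation was -0.070. The correlation of Rbm3 with the background rows lost its call without control animals 1 and 2 (-0.52) and without the 2 farthest arrays (-0.35). The cause was not tested. With each array left out in turn it ran from -0.62 to -0.44 and passed in 7 of 20, the Cirbp with Rbm3 correlation from -0.011 to 0.24, and the 30 °C to 23 °C difference from -0.044 to 0.33 for Cirbp and from -0.23 to 0.11 for Rbm3. Unadjusted permutation tests of the member alone put 5 differences past 0.05: Cirbp at 0.69, 0.50 and 0.90 (10 °C against 23 °C, 30 °C and 18 °C) and Rbm3 at 0.44 (18 °C against 23 °C) and 0.38 (cold against warm).

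With the animal number as a replicate block, which does not pair these mice, the 10 °C to 23 °C difference of Cirbp was 0.74, the 10 °C to 18 °C difference 0.72 and the cold to warm difference of Rbm3 0.43, while the 18 °C to 23 °C difference of Cirbp was 0.025 and the 30 °C to 23 °C difference of Rbm3 0.043. Of 11 pairs of equal number, 1 correlated over 0.1. The count of clusters passing was 2 between 10 °C and 23 °C (0 to 2 over the alternatives, 0 to 22 with an array left out) and 1 for cold against warm (0 to 16, and 1 to 6). Where it was 0, it was at most 3 in single pairs over the alternatives and at most 2 over the 4 groups, and with an array left out at most 3 in pairs and 7 over the 4 groups. Signal near the background, as for Clk2, Ntrk2 and Rbmxl1, and 5 arrays per group limit what can be seen.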
